A study of Sus scrofa with 2 samples.

Results

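In the anterior pituitary of 20-day-old piglets, the signals of miR-21 and miR-210 were lower in Bama minipigs than in Landrace pigs, that of miR-221 was higher, and that of miR-222 was nearly the same on both arrays. These 4 miRNAs were taken by name, as every porcine miRBase probe for miR-21, miR-210, miR-221 or miR-222 with any letter or arm, which gave 4 of the 355 probes on the array. The Bama minipig (YB), a small Chinese breed with low growth performance, was compared with the Landrace pig (YC), a large commercial breed, to find pituitary miRNAs that differ between slow and fast growing pigs. Both groups were healthy female piglets aged 20 days, for which no treatment is described, and the anterior pituitary RNA of 3 piglets was combined into 1 pool per breed. Each pool was hybridised to 1 array, so the variation among pigs is unknown and no difference was tested.

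miR-21, miR-221, miR-222 and miR-210 are often grouped as growth-promoting miRNAs. In a number of tissues and tumours, miR-21, miR-221 and miR-222 repress genes that hold back growth or survival. A miRNA guides the silencing complex to mRNAs that pair with its seed, the bases 2 to 8 of the mature strand, and so lowers their stability or translation. miR-21 represses the tumour suppressor PDCD4, miR-221 and miR-222 repress the cell cycle inhibitors CDKN1B and CDKN1C, and miR-210 is the classical miRNA induced by hypoxia, with targets such as ISCU and GPD1L. In the pituitary, the gland that secretes growth hormone, prolactin, gonadotropins and other hormones, loss of CDKN1B is known to cause tumours. These roles come from other work, mostly in other species. The mRNAs of these pigs were not analysed here.

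The mature sequences are shown because the seed sets which mRNAs a miRNA can pair with, and because probes for similar strands could share signal. They are the sequences listed for the array's probes in the paper's supplement, written 5′ to 3′, with the seed in capitals.
ssc-miR-21: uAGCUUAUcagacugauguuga
ssc-miR-221: aGCUACAUugucugcuggguuu
ssc-miR-222: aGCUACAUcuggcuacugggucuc
ssc-miR-210: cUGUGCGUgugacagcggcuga

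The 4 miRNAs hold 3 seeds. ssc-miR-221 and ssc-miR-222 share the seed GCUACAU and, counted from the 5′ end, their first 8 bases. After these bases, the longest run that both contain is CUGGGU, which starts at position 15 in ssc-miR-221 and at position 16 in ssc-miR-222. The strands are 22 and 24 bases long and are 5 single-base changes, insertions or deletions apart. No other probe on the array carries the seed of any of the 4 miRNAs. Outside the 4, the nearest mature sequence was 8 such changes away from ssc-miR-21 (ssc-miR-217), 8 from ssc-miR-221 (ssc-miR-181b), 9 from ssc-miR-222 (ssc-miR-107) and 8 from ssc-miR-210 (ssc-miR-4334-5p). G and C made up 36.4% of ssc-miR-21, 45.5% of ssc-miR-221, 54.2% of ssc-miR-222 and 63.6% of ssc-miR-210. Whether the probes of ssc-miR-221 and ssc-miR-222 bind each other's miRNA was not tested.

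In the RefSeq annotation of Sscrofa11.1, MIR221 and MIR222 are neighbours with no gene between them. In mammals they are processed from a common primary transcript of the X chromosome. MIR21 lies between PTRH2 and TUBD1, and MIR210 between RASSF7 and PHRF1. The array values carry no genome build, so no coordinates are given.

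The values used are linear signal intensities, deposited after background subtraction and LOWESS normalisation by the authors. They hold no background and no spread between the repeat spots of a probe. The study's supplement lists a spot spread and detection calls, which were not used here, so no error or detection call is given. Over the 355 probes, the array of the Bama minipigs had a median signal of 114 and that of the Landrace pigs one of 95.1. The pituitary-enriched ssc-miR-7 had the highest signal on each array. A set of 182 probes with a mean signal of at least 100 over both arrays is used below and called the measured probes. It includes all 4 miRNAs. How brightly a probe shines also depends on its binding, so signals of different miRNAs are not compared as amounts. In tissue pools, fewer cells of a type and less RNA per cell cannot be told apart.

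The signal of ssc-miR-21 reached 10048 on the array of the Bama minipigs, against 12524 on that of the Landrace pigs. The Bama minipig signal was thus 1.25-fold lower, a log2 ratio (Bama minipigs over Landrace pigs) of -0.32. By signal it ranked at position 20 of 355 for Bama minipigs and at position 12 for Landrace pigs, and it made up 1.44% and 1.86% of the summed signal of the respective array. ssc-miR-21 is among the 20 probes with a mean signal of 10000 or more. Most probes of similar brightness differed less between the arrays. Of the 34 other probes with a mean signal within 2-fold of its own, 27 had a log2 ratio of smaller size, and their median size was 0.099. This is a description of 1 pair of arrays and not a test.

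For ssc-miR-221 the Bama minipig pool gave 5432 and the Landrace pool 3809.8. It was 1.43-fold higher in Bama minipigs, a log2 ratio of 0.51, the largest in size among the 4 miRNAs as deposited. After scaling to the 75th percentile it was 0.33, smaller in size than those of ssc-miR-210 (-0.59) and ssc-miR-21 (-0.50). The same held after quantile normalization (0.26 against -0.54 and -0.37). The position of ssc-miR-221 by signal was 48 for Bama minipigs and 54 for Landrace pigs. Of the 50 other probes of similar mean signal, 36 had a log2 ratio of smaller size and 12 had a higher one.

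ssc-miR-222, its neighbour in the genome, gave 4902 with the Bama minipig pool and 4807 with the Landrace pool. These values lay within 1.02-fold of each other, with a log2 ratio of 0.028. The sign of so small a ratio is not settled. It turned negative after scaling to the 75th percentile (-0.16), quantile normalization (-0.20), scaling to the total signal (-0.022) and cyclic loess (-0.050). Of the 49 other probes of similar mean signal, 1 had a log2 ratio of smaller size. The position of ssc-miR-222 by signal was 53 for Bama minipigs and 50 for Landrace pigs.

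The signals of ssc-miR-210 were 221.6 for the Bama minipig pool and 294 for the Landrace pool. The Bama minipig signal was 1.33-fold lower, a log2 ratio of -0.41, and its position was 151 for Bama minipigs and 140 for Landrace pigs. Probes this dim differed more between the arrays. The 46 other probes of similar mean signal had a median size of the log2 ratio of 0.62, larger than that of ssc-miR-210, and 17 of the 46 had a smaller one.

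**Figure D1:**
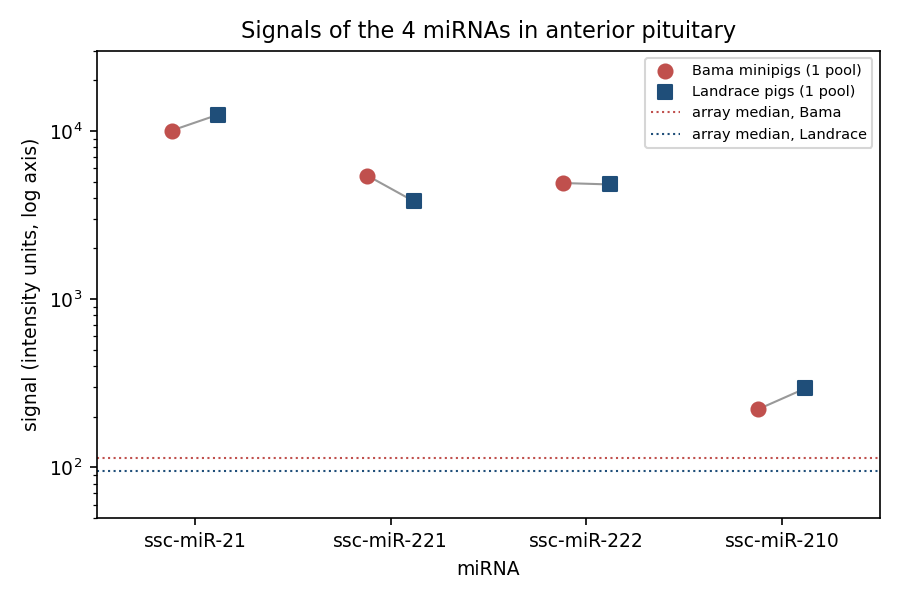
Signals of the 4 miRNAs (log axis, intensity units), with a circle for the Bama minipig pool and a square for the Landrace pool, each 1 array without replicates. Dotted lines mark the median signal of all 355 probes on each array, 114 and 95.1, and all 8 signals lie above them. The joining line falls towards Landrace pigs for ssc-miR-221, is nearly flat for ssc-miR-222 and climbs for ssc-miR-21 and ssc-miR-210.

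None of the 4 miRNAs differed by 2-fold or more between the breeds. Of all 355 probes, 34.6% did, and of the 182 measured probes 16.5%, with 24 (13.2%) higher and 6 (3.30%) lower in Bama minipigs. With a limit of 1.5-fold the number among the 4 was also 0, and 29.7% of the measured probes were past it. After scaling to the 75th percentile ssc-miR-210 passed that limit, at 1.51-fold lower in Bama minipigs. The 4 log2 ratios ran from -0.41 to 0.51 and their median was -0.14, against a median of 0.025 over the measured probes, of which 92 of 182 (50.5%) were above 0. The lower and upper quartiles of the measured probes were -0.26 and 0.40. ssc-miR-222 lay near the middle of that distribution, with 89 measured probes above it and 92 below. ssc-miR-221 had 41 above it, ssc-miR-21 had 40 below it and ssc-miR-210 had 30 below it. ssc-miR-221, ssc-miR-21 and ssc-miR-210 therefore lay outside these quartiles, the first above and the others below.

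**Figure D2:**
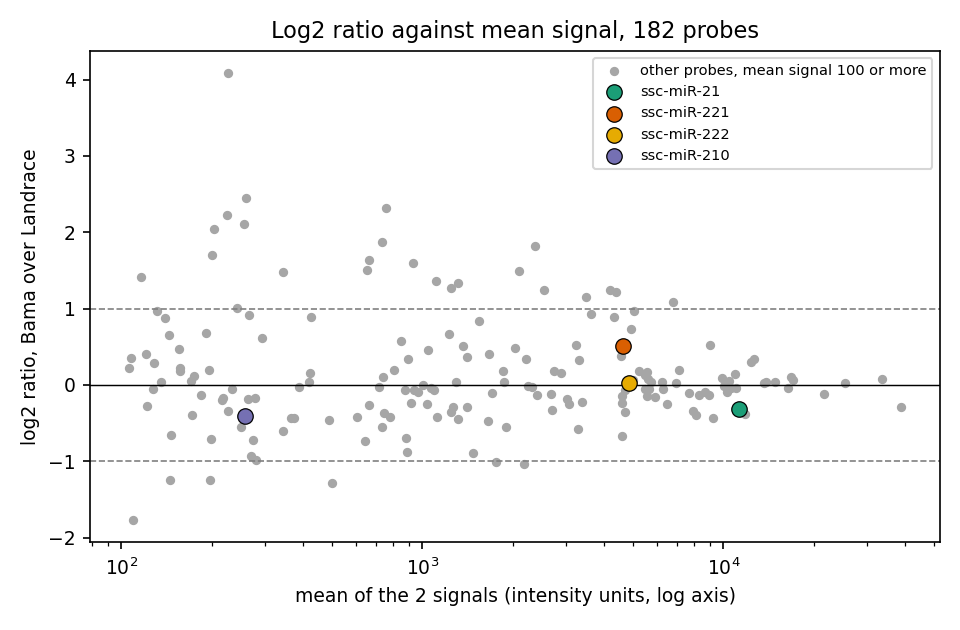
Log2 ratio of Bama minipigs over Landrace pigs against the mean of both signals (log axis, intensity units) for the 182 measured probes, with the 4 miRNAs in colour and dashed lines at a 2-fold difference. All 4 lie between the dashed lines, and the grey points spread more widely at low signal, where ssc-miR-210 lies, than around ssc-miR-21.

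ssc-miR-221 and ssc-miR-222, which share a seed and a locus, did not show the same ratio between the breeds. The log2 ratio of ssc-miR-221 exceeded that of ssc-miR-222 by 0.48, or 1.40-fold. Multiplying an array by a constant leaves this difference as it is, and it was 0.46 after quantile normalization, 0.48 both after cyclic loess and after adding 50 units to each signal. Among the measured probes, 76 other pairs also share their bases 2 to 8, and 53 of these pairs differed less in log2 ratio than ssc-miR-221 and ssc-miR-222, while 23 differed more. The differences of the 76 pairs had a median of 0.26 and reached 5.33. That largest value, between ssc-miR-1 and ssc-miR-206, rests on a dim probe. ssc-miR-1 (426 for Bama minipigs against 25.1 for Landrace pigs) counted as measured only through its signal in Bama minipigs. The value of 5.33 is therefore no guide to how far pairs that share a seed differ. The 76 pairs fall into 23 seeds and share probes with each other, so they are not independent.

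The remaining pairs of the 4 miRNAs differed as follows. The log2 ratio of ssc-miR-21 was 0.83 lower than that of ssc-miR-221 and 0.35 lower than that of ssc-miR-222. It was within 0.092 of that of ssc-miR-210. The log2 ratio of ssc-miR-221 exceeded that of ssc-miR-210 by 0.92, the largest difference of any pair. That of ssc-miR-222 exceeded it by 0.44. The order of the 4 ratios, with ssc-miR-221 highest, then ssc-miR-222, ssc-miR-21 and ssc-miR-210, was the same under each of the 6 other ways of processing the arrays. Scaling to the median, to a percentile or to the total signal multiplies an array by a constant and cannot change this order. Only quantile normalization, cyclic loess and the offset could have changed it. With no spread between pigs, and the spread between spots not used here, whether neighbours in this order differ was not tested.

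**Figure D3:**
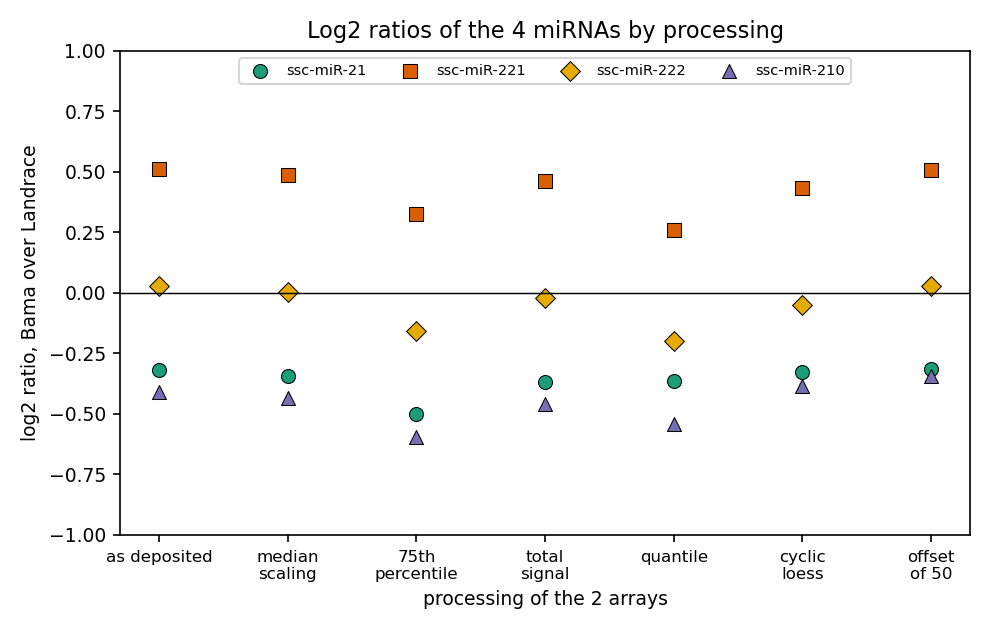
Log2 ratio of each of the 4 miRNAs with the signals as deposited and under 6 other ways of processing the 2 arrays. ssc-miR-221 is above 0 in all of them (0.26 to 0.51), ssc-miR-21 and ssc-miR-210 are below 0 in all of them, and ssc-miR-222 crosses 0.

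For each of the 4 miRNAs, the porcine miRBase probes nearest in log2 ratio were looked up among those with a mean signal within 2-fold of its own. With 1 value per breed this likeness rests on a single ratio. Nearest to ssc-miR-21 were ssc-miR-126, an endothelial miRNA, with 6981 against 8857 (Bama minipigs against Landrace pigs, log2 ratio -0.34), and ssc-miR-24, with 5908 against 7042 (-0.25). Nearest to ssc-miR-221 were ssc-miR-374b-5p, with 3827 against 2672 (0.52), and ssc-let-7c, with 10659 against 7414 (0.52). Nearest to ssc-miR-222 were ssc-miR-92a, with 7033 against 6911 (0.025), and ssc-miR-127, with 5797 against 5659 (0.035). Nearest to ssc-miR-210 were ssc-miR-500, with 149 against 195 (-0.39), and ssc-miR-130b, with 311 against 419 (-0.43).

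miR-210 is often named together with other hypoxia-linked miRNAs. Of a list of 10 such miRNAs, all measured, 5 had a log2 ratio above 0 (between 0 and 5 under the other ways of processing the arrays), none differed by 2-fold and the median was 0.0074. They ran from ssc-miR-24 to ssc-miR-107, which had 5568 against 4909 (0.18). The ratio of ssc-miR-210 (-0.41) lay below all 10, as it did under each of the 6 other ways of processing. Scaling an array by a constant cannot change this. Of the 10, ssc-miR-24 was the lowest at -0.25. The lowest signal of the list was 2287, far above those of ssc-miR-210 (221.6 and 294). Probes as dim as ssc-miR-210 differed more between the arrays, with a median size of the log2 ratio of 0.62. Its place below these brighter miRNAs therefore cannot be read as a departure from them.

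Of a list of 9 other growth-promoting miRNAs, miR-155 and 8 of the miR-17-92 cluster and its paralogs, 5 were measured. All 5 had a log2 ratio above 0, where 50.5% of the measured probes did. The median of the 5 was 0.039, close to the median of 0.025 over the measured probes. After scaling to the 75th percentile or to the total signal 2 of the 5 were above 0. After quantile normalization or cyclic loess 3 were. ssc-miR-19b, a member of that cluster, was more than 2-fold higher in Bama minipigs (1881 against 743, log2 ratio 1.34), and ssc-miR-92a was the lowest of the 5. The list does not cover every paralog. ssc-miR-363, also measured and looked up after its value was seen, had 949 against 1128 (-0.25), and with it 5 of 6 were above 0. The listed ssc-miR-155, with signals below 1 on both arrays (-0.30), ssc-miR-18a (44.3 against 83.2, -0.91), ssc-miR-18b (25.4 against 47.5, -0.90) and ssc-miR-19a (37.4 against 3.20, 3.55) were not measured. That all 5 lay above 0 thus holds for the measured members only. Of 14 growth-restraining miRNAs of the let-7, miR-15/16 and miR-34 families, 12 were measured. Of these, 8 had a log2 ratio above 0 (6 after scaling to the 75th percentile or to the total signal or quantile normalization). Past 2-fold, 2 were higher (1 after scaling to the 75th percentile or quantile normalization) and none lower, a share close to that of the measured probes. Their median was 0.17, or -0.014 after scaling to the 75th percentile. ssc-miR-424, which has the seed of the miR-15/16 family but was not on the list, had 229 against 238 (-0.057), and with it 8 of 13 were above 0 and the median was 0.039. The listed ones ran from ssc-miR-34a (199 against 253, -0.35) to ssc-miR-98, a let-7 family member (3693 against 1042, 1.83). The families differed. As deposited, every listed let-7 family probe was above 0, and those past 2-fold were ssc-miR-98 and ssc-let-7e (1.09). Besides ssc-miR-34a, ssc-miR-15a (-0.19), ssc-miR-15b (-0.047) and ssc-miR-16 (-0.13) were below 0, and ssc-miR-195 (0.58) was above. Whether the similar let-7 strands share signal was not tested.

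Lists for other cell types that a dissected anterior lobe can hold are given beside these values. miR-21 is also abundant in fibroblasts, and miR-221 and miR-222 in vessel walls. Of 8 miRNAs of vessels and connective tissue, all measured, 7 had the lower signal in Bama minipigs (8 after quantile normalization). Of the measured probes, 50.5% had the higher one. By 2-fold or more, 3 of the 8 were lower (2 with the offset of 50), where 3.30% of the measured probes were. The median log2 ratio of the list was -0.73. The 8 are not independent, since ssc-miR-199a and ssc-miR-199b share a seed, and ssc-miR-126 and ssc-miR-126* share a name, as do ssc-miR-199a and ssc-miR-199a*. Their signals summed to 17004 for Bama minipigs and 22998 for Landrace pigs. The lowest ratio was that of ssc-miR-199b (292 against 712, -1.28) and the highest that of ssc-miR-214 (858 against 752, 0.19). ssc-miR-21 and ssc-miR-210 lay on the same side as this list, and ssc-miR-221 on the other.

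The sum over the blood cell list was 5497 for Bama minipigs and 6026 for Landrace pigs, nearly all from the erythroid ssc-miR-451 (5286 and 5841, log2 ratio -0.14). Of its 4 miRNAs on the array 2 were measured, and the other was ssc-miR-486 (208 and 182, 0.19). The striated muscle list summed to 1528 and 659.7. Its ssc-miR-1 (426 against 25.1), ssc-miR-133a-3p (370.4 against 79.2) and ssc-miR-133b (439 against 80.6) counted as measured only through their signals in Bama minipigs, so their share of the list is no support for a difference. ssc-miR-206 (117 against 278, log2 ratio -1.25, or -0.97 with the offset) and ssc-miR-499-5p (175 against 192, -0.14) were the other measured ones. The neural list summed to 5649 and 5748. Of its 5 miRNAs, ssc-miR-128 (5384 and 5602, -0.057) and ssc-miR-153 (180.4 and 98.0, 0.88) were measured. ssc-miR-153 also counted as measured only through its signal in Bama minipigs, so its ratio is no support for a difference. No probe of either array was at exactly 0, since the lowest signals were 0.025 for Bama minipigs and 0.0053 for Landrace pigs. A signal above 0 therefore does not show that a miRNA was present. Within these lists, the lowest signals on the array of Bama minipigs were 0.489 for blood cells, 0.829 for striated muscle and 6.13 for neural tissue. The part that other cell types have in the values of the 4 miRNAs was not tested.

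**Figure D4:**
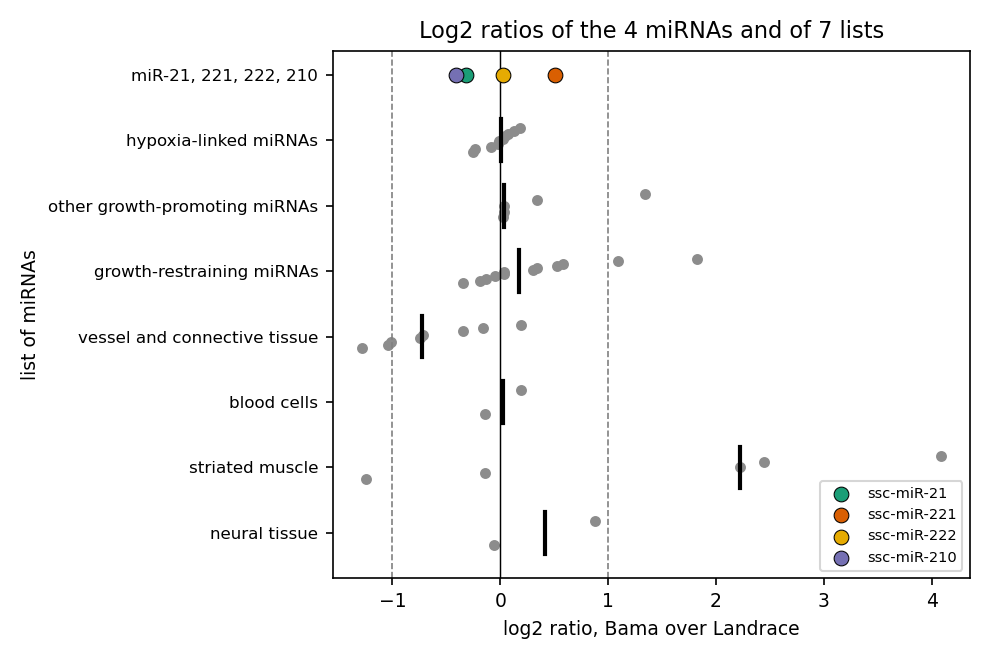
Log2 ratios of Bama minipigs over Landrace pigs for the 4 miRNAs (coloured, top) and for the measured members of 7 lists (grey points, with a black bar at the median of the list and dashed lines at a 2-fold difference). The hypoxia-linked list sits close to 0, 7 of 8 vessel and connective tissue miRNAs lie below 0, and the 3 high points of the striated muscle list have Landrace signals below 100. The higher point of the neural list also has a Landrace signal below 100.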

How the data were processed

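RNA of the anterior pituitary, 1 pool of 3 pigs per breed, was hybridised by a service provider to a custom miRNA array stained with Cy5. The deposited values are signal intensities, which the authors had background-subtracted, normalised with a LOWESS filter and averaged over repeat spots. What the LOWESS curve was fitted against is not given in the sources used here. A curve fitted between arrays can absorb a common shift. Of the supplement, only sequences were used.

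Log2 ratios of Bama minipigs over Landrace pigs were computed from the intensities without further scaling. With 1 array per breed no test was made, and a limit of 2-fold was used as a rule of size. Measured probes had a mean signal of at least 100. The 4 miRNAs and the lists were chosen with earlier results of these data known. Named were the 4 miRNAs, the 2 probes nearest to each in log2 ratio, and the highest and lowest measured ratio of each list. Other list miRNAs named, ssc-miR-363 and ssc-miR-424 were chosen after their values were seen. Sequences were compared by edit distance.

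Alternatives were median scaling, scaling to the 75th percentile (both over measured probes), scaling to the total signal, quantile normalization, cyclic loess of 3 iterations (both in limma 3.58.1 under R 4.3.3), an offset of 50, a limit of 1.5-fold and lists without the filter. A log2 ratio was taken as unchanged within 0.1 and a count within a factor of 1.5. The code of the scalings was run on simulated data with little noise and as many raised as lowered probes. Since the real arrays differ in both, this checks the code and not which scaling suits these data. Python 3.11.15, numpy 2.4.6, pandas 2.3.3 and matplotlib 3.10.9 were used.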

Additional observations from a re-analysis of the deposited data

How the results depend on the processing

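The number of arrays limits every value, since 1 pool per breed gives no error between pigs, and background and spot data were not analysed here. No paired analysis was possible because each breed has 1 sample. The comparison of pairs that share a seed, the added list members and the limit of 1.5-fold with scaling were chosen after seeing the data. No member of the 4 passed 2-fold under any alternative run, or 1.5-fold with the signals as deposited, and 1 of the 4 passed 1.5-fold after scaling to the 75th percentile. Every log2 ratio fell by 0.18 with scaling to the 75th percentile, and the median change of the measured probes with quantile normalization was -0.16. The log2 ratio was then, after scaling to the 75th percentile, -0.50 for ssc-miR-21, -0.59 for ssc-miR-210, 0.33 for ssc-miR-221 and -0.16 for ssc-miR-222. After quantile normalization it was -0.54 for ssc-miR-210, 0.26 for ssc-miR-221 and -0.20 for ssc-miR-222. Under all other alternatives the 4 log2 ratios moved by no more than 0.1. The number of seed-sharing pairs that differed less than ssc-miR-221 and ssc-miR-222 was between 52 and 55. The causes of these moves beyond the scaling itself were not tested.

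Scaling to the 75th percentile moved the list medians to -0.18 for the hypoxia-linked, -0.15 for the other growth-promoting, -0.014 for the growth-restraining, -0.91 for the vessel and connective tissue, -0.16 for the blood cell, 2.04 for the striated muscle and 0.23 for the neural miRNAs. Quantile normalization moved the vessel and connective tissue median to -0.94, the blood cell median to -0.092, the striated muscle median to 1.85 and the neural median to 0.18. Cyclic loess moved the vessel and connective tissue median to -0.62. The offset moved the striated muscle median to 1.70 and the neural median to 0.29. Without the filter on low signals the striated muscle median was 1.04 and the neural median 0.88. With the filter, these medians rest on probes that passed it only through their signals in Bama minipigs. The striated muscle and neural medians are therefore no support for a difference. With ssc-miR-424 added, the growth-restraining median was 0.039, and with ssc-miR-363 added, the growth-promoting median was 0.037.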
